A study of Mus musculus with 15 samples.

Results

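Small nucleolar RNA (snoRNA) host genes were followed in the striatum of mouse pups whose mothers had inhaled paraquat, titanium dioxide (TiO2) or a mixture of both during pregnancy. The 10 genes, Snhg1, Snhg3, Snhg5, Snhg6, Snhg8, Snhg11, Snhg12, Snhg14, Snhg20 and Gas5, were taken by symbol from a table of 15569 genes, and all 10 were present and tested. The family was chosen by the values of Snhg6, whose fall after paraquat was among the largest in these libraries. For the 10 genes, the values of the paraquat libraries are therefore given as a description, without a test. Genes of other lists were tested after paraquat, and those lists were chosen with earlier results of these data known. All pups were C57Bl/6J, and striatum, the part of the basal ganglia that receives cortical input, was sampled at postnatal day 14 from 3 paraquat, 4 TiO2, 4 mixture and 4 control libraries. Paraquat is a redox-cycling herbicide and TiO2 is a particulate white pigment, and both were given to the dams as aerosols. The control pups are labelled untreated. The labels give no dose, dam, litter, sex or batch and leave unsaid whether each library is a different pup, so the p-values here reflect only the spread of the samples, which may be technical. Values are read counts scaled by a size factor per library, called normalised read counts below, and 1 read was worth 0.658 to 1.08 of them. RNA was taken from whole tissue, so fewer cells of a type and less RNA per cell cannot be told apart. All 10 markers of striatal projection neurons were present in all 15 libraries, with Pdyn, the dynorphin precursor, the lowest at 446.

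SnoRNAs are short guide RNAs that are mostly cut out of the introns of longer host transcripts after splicing. Box C/D snoRNAs direct ribose methylation and box H/ACA snoRNAs direct pseudouridine formation, mainly in ribosomal RNA, while the spliced host is exported to the cytoplasm. Many noncoding hosts begin with a terminal oligopyrimidine tract, as ribosomal protein mRNAs do, and are removed by nonsense-mediated decay when they are translated. In the GENCODE M21 annotation of GRCm38, Gas5 carried 9 snoRNA loci, Snhg1 had 8, Snhg12 had 4, Snhg3, Snhg5 and Snhg11 had 2 each, and Snhg6 and Snhg8 had 1 each. Snhg14, the long imprinted transcript of the Prader-Willi and Angelman region, spanned 208 loci. In that annotation the family name went against 2 of the 10 genes. Snhg11, which is strongly expressed in neurons, was annotated as protein coding, and Snhg20 held no snoRNA but a Cajal body RNA (Gm26083).

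The guides of the box C/D hosts are shown because Snhg6, the lowest member after paraquat, and Gas5, the member called after TiO2, carry them, as do Snhg1, Snhg5 and Snhg12. Capitals mark box C, searched as TGATGA in the first 20 bases, and box D, searched as CTGA in the last 20, the motifs that bind the core proteins of the particle. Coordinates and sequences are from GENCODE M21 on GRCm38. Snord87 (chr1:9942463-9942549, minus strand) is the snoRNA of Snhg6. Snord50a (chr9:88521529-88521600) and Snord50b (chr9:88521797-88521868, both minus strand) belong to Snhg5. Snord80 (chr1:161037601-161037681) and Snord47 (chr1:161038082-161038158, both plus strand) are among those of Gas5, and Snord99 (chr4:132310691-132310764, plus strand) is the box C/D member of Snhg12. Snord78 of Gas5 (chr1:161036984-161037049) and Snord22 of Snhg1 (chr19:8725866-8725991, both plus strand) have a match to box D but no exact match to box C.
Snord87: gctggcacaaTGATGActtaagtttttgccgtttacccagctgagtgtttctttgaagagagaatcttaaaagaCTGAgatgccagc
Snord50a: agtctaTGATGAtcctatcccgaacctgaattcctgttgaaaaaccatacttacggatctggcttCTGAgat
Snord50b: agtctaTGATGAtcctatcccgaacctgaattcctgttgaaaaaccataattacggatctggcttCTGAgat
Snord80: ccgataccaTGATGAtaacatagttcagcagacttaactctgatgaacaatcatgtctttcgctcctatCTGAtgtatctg
Snord47: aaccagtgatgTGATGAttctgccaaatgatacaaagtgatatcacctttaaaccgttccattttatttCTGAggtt
Snord99: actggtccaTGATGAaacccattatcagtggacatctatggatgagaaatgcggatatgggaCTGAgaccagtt
Snord78: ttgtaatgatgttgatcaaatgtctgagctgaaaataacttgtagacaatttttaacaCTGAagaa
Snord22: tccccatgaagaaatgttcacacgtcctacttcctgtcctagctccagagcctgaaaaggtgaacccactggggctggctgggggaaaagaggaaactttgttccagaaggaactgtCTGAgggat
Snord50a and Snord50b differ at 1 of 72 positions, C50A counted from the 5′ end of Snord50a. Exact matches to both motifs were present in 68 of 98 annotated Snord genes (69.4%). The snoRNAs were hardly represented in the table, which holds 3 snoRNA genes in all, so the values below are of the hosts and not of the guides.

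Promoter windows of 80 bases around the annotated start were read for the members from RefSeq on GRCm38.p6, which has an entry for 9 of the 10. The windows are shown for the 4 members in which a pyrimidine tract and a TATA motif were found together. Capitals mark TATAAA or TATATA between positions -45 and -15 and, at the start, a run of at least 5 pyrimidines that begins with C within 10 bases of it. The tract was found in 5 of 10 windows and in 29.0% of 32851 windows of all genes. The TATA motif was found in 4 of 10 windows and in 3.0% of all. Gas5 has a pair of annotated starts, of which the second is shown.
Gas5 (chr1:161035121-161035200, plus strand): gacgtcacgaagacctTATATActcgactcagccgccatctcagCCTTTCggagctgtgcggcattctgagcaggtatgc
Snhg12 (chr4:132308633-132308712, plus strand): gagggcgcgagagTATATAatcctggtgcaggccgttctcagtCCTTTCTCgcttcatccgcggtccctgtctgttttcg
Snhg8 (chr3:123508302-123508381, minus strand): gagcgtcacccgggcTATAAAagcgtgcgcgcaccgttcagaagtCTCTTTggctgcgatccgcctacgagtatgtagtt
Snhg5 (chr9:88522863-88522942, minus strand): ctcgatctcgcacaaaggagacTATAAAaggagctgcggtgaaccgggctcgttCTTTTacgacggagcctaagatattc
Windows were searched on the transcribed strand alone, and a match is a description of the letters, not of a bound factor.

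Per kilobase of annotated exon, Snhg11 stood far above the other members. Its normalised read count per kilobase in control libraries was 2705 to 2836, against 161 to 283 for Snhg8, the next in order. Snhg12 followed at 144 to 177, Snhg3 at 134 to 150.2 and Snhg6 at 106 to 112 per kilobase. Gas5 (70.5 to 79.7), Snhg20 (59.8 to 67.0), Snhg5 (51.3 to 72.6), Snhg14 (31.2 to 43.4) and Snhg1 (26.4 to 40.1) completed the order on the same scale. Control ranges overlapped between the neighbours Snhg8 and Snhg12, Snhg12 and Snhg3, Snhg20 and Snhg5, and Snhg14 and Snhg1. Without regard to length, Snhg11 made up 89.1% to 91.3% of the summed normalised read count of the 10 genes and ranked 13 to 18 among all genes of a library.

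**Figure D1:**
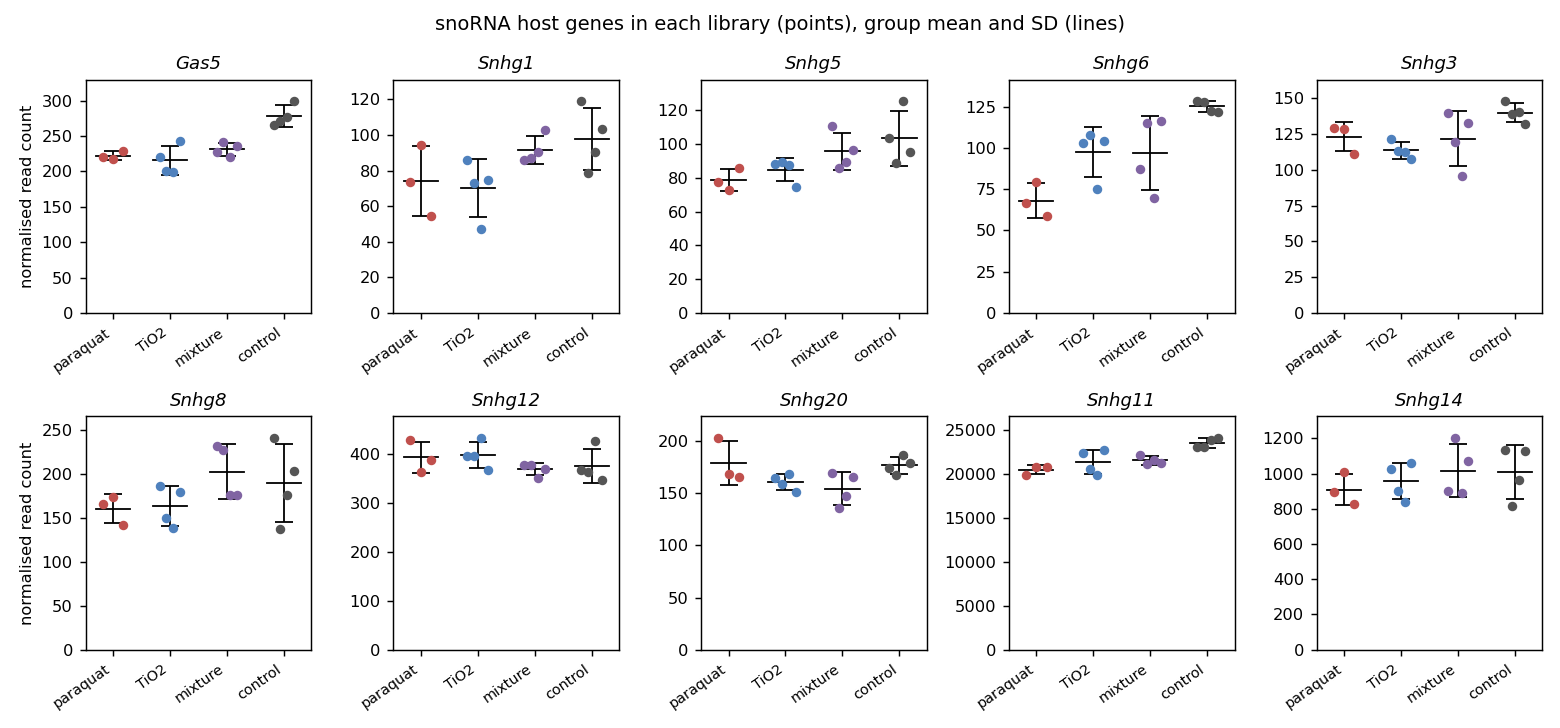
Normalised read count of the 10 host genes in each library (points), with the group mean and SD (lines), for the paraquat (n = 3), TiO2, mixture and control groups (n = 4 each). For Gas5 and Snhg11, and for Snhg6, every exposed library lies below every control library.

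After TiO2, 9 of the 10 genes lay below control on the log2 scale and Gas5 alone passed the test. The median log2 difference of the 10 was -0.23, against -0.01 over all genes tested, and 51.8% of all genes lay below 0. A call is an adjusted p under 0.05 in limma with Benjamini-Hochberg adjustment over 15556 genes, and after TiO2 6.4% of these were called, 2.1% lower and 4.3% higher. All 4 TiO2 libraries lay below all 4 control libraries for Gas5, Snhg3, Snhg6 and Snhg11, 4 of 10 genes, against 5.02% of all genes. After the mixture, 8 of the 10 lay below control, as did 52.3% of all genes, with a median log2 difference of -0.12 against -0.01 over all genes, and limma called none. There, edgeR and DESeq2 called 0 members as well, and 1.19% of all genes were called by limma. An unadjusted p under 0.05 was reached by 2 of the 10 members and by 12.2% of all genes after the mixture, and by 6 of the 10 and 23.3% of all genes after TiO2. The mixture groups did not overlap with control, on the lower side, for Gas5, Snhg6 and Snhg11, 3 of 10 genes, against 3.37% of all genes. TiO2 and mixture were set against the same 4 control libraries that were used to choose Snhg6, and those comparisons are not independent of each other or of that choice.

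The mixture was also compared with TiO2 alone, a comparison that shares no library with the choice of Snhg6. The 10 genes had a median log2 difference of 0.09, against -0.00 over all genes, and 3 lay below 0, as did 50.7% of all genes. With a trend in GC content removed from each library, as described below, that median was -0.002 and 5 of the 10 lay below 0. No member was called by limma, and 0% of all genes were called. An unadjusted p under 0.05 was reached by 2 of the 10 members, Snhg1 and Snhg8, and by 11.4% of all genes. Neither edgeR nor DESeq2 called a member, although DESeq2 called 54 genes in all. All 4 mixture libraries lay above all 4 TiO2 libraries for Snhg1 alone of the 10, against 3.28% of all genes, and there by less than 1 read.

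In the paraquat libraries, given as a description, 8 of the 10 genes lay below control, as did 51% of all genes, and the median log2 difference was -0.21, against -0.01 over all genes. All 3 paraquat libraries lay below all 4 control libraries for Snhg3, Snhg5, Snhg6, Snhg11 and Gas5, where 10.3% of all genes did so. Between the exposures, all 4 mixture libraries lay above all 3 paraquat libraries for Snhg5, Snhg8 and Snhg11, where 7.17% of all genes did so, and for Snhg5 the margin was less than 1 read.

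**Figure D2:**
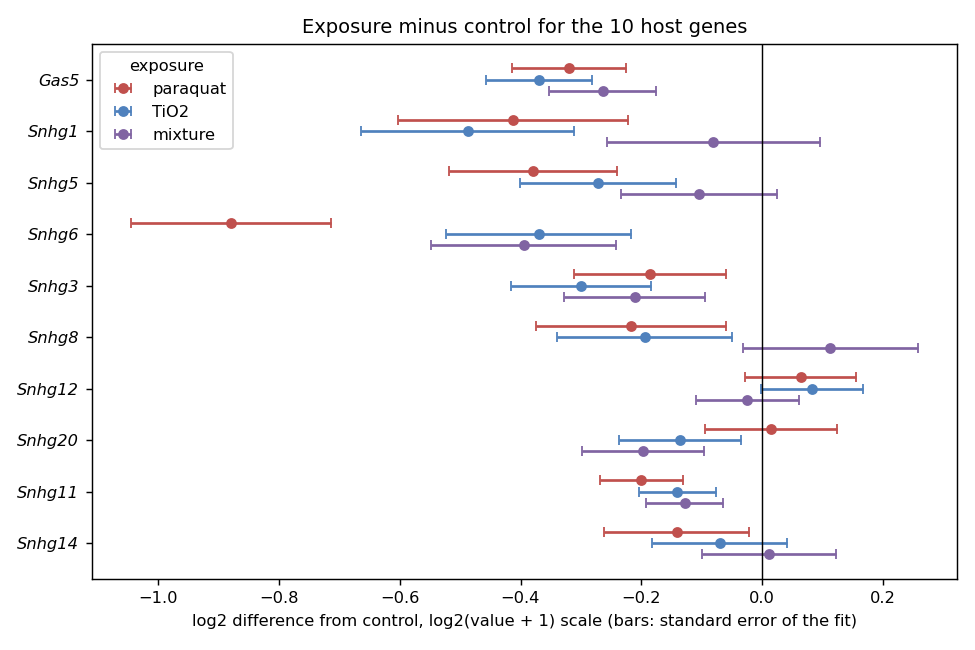
Difference of paraquat, TiO2 and mixture from control for each host gene on the log2(value + 1) scale, with bars for the standard error of the fit. Snhg6 after paraquat, at -0.88, is the lowest point, and Gas5 lies between -0.37 and -0.26 in all 3 exposures.

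Gas5, named for its rise in growth-arrested cells and the host of more snoRNA loci than any other of the 10 but Snhg14, was lower in each exposure. It had 220.3, 218 and 229 normalised read counts in paraquat libraries, 221, 200.3, 199 and 243 in TiO2 libraries, 228, 242, 221 and 235 in mixture libraries, and 265, 271, 277 and 299.8 in control libraries. No exposed library reached the lowest control library. Gas5 fell after TiO2 to 216 ± 20.7, against 278 ± 15.1 in control (SD, n = 4 each), a log2 difference of -0.37 ± 0.09 (SE; 95% interval -0.55 to -0.19; limma, Benjamini-Hochberg adjusted p = 0.0127). The call was lost after each library was corrected for a GC trend (-0.26, limma adjusted p = 0.0526), without TiO2 replicate 2 and without control replicate 4 (limma adjusted p = 0.0516 in each). Over all 18 alternatives, which include edgeR and DESeq2 beside fits by limma, its adjusted p ran from 0.00557 to 0.0526. The mixture mean was 231 ± 9.26, with a log2 difference of -0.26 ± 0.09 from control that did not pass (limma adjusted p = 0.167). The paraquat mean was 223 ± 5.82, with a log2 difference of -0.32 ± 0.09.

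Snhg6, the host of Snord87, was lowest in the paraquat libraries. It had 66.5, 79.1 and 58.6 normalised read counts in paraquat libraries, 103, 108, 75.3 and 104 in TiO2 libraries, 87.1, 115, 69.7 and 116 in mixture libraries, and 128, 128, 122 and 122 in control libraries. Control libraries lay close together, while TiO2 3, mixture 3 and mixture 1 stood below the rest of their groups and all but mixture 3 and TiO2 3 lay above the paraquat range. The paraquat mean of 68.1 ± 10.4 was 54.4% of the control mean of 125 ± 3.53, a log2 difference of -0.88 ± 0.17. After TiO2 the log2 difference was -0.37 ± 0.15 (limma adjusted p = 0.141), with a mean of 97.5 ± 15. After the mixture it was -0.39 ± 0.15 (limma adjusted p = 0.258), with a mean of 97.0 ± 22.6. Neither passed, though no library of either group reached the control range. Mixture and TiO2 differed by -0.02 in log2, with a 95% interval of -0.34 to 0.29. The mixture stood 0.48 ± 0.17 above paraquat in log2, with overlapping libraries.

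Snhg1, which carries Snord22 and 7 further loci, was lowest after TiO2. It had 73.4, 94.4 and 54.7 normalised read counts in paraquat libraries, 86.1, 73.2, 47.2 and 74.6 in TiO2 libraries, 86.1, 86.8, 90.5 and 103 in mixture libraries, and 119, 78.4, 90.4 and 103 in control libraries. Control libraries spread widely, so that each exposed group overlapped with them. TiO2 differed from control by -0.49 ± 0.18 in log2 (limma adjusted p = 0.0956), the largest difference of the 10 in that comparison, which passed only without control replicate 2 (-0.59, limma adjusted p = 0.0471). The mixture stood 0.41 ± 0.18 above TiO2 in log2 and did not pass (limma adjusted p = 0.389). The lowest mixture library (86.15) and the highest TiO2 library (86.12) were 0.030 units apart, less than 1 read. Paraquat differed from control by -0.41 ± 0.19 in log2.

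Snhg5, the host of the Snord50 pair shown above, had 77.4, 73.1 and 85.6 normalised read counts in paraquat libraries, 88.2, 89.5, 87.3 and 74.6 in TiO2 libraries, 111, 85.7, 89.5 and 96.7 in mixture libraries, and 104, 88.8, 126 and 95.3 in control libraries. Paraquat lay wholly below control, at -0.38 ± 0.14 in log2, whereas TiO2 and mixture overlapped with it. TiO2 differed by -0.27 ± 0.13 (limma adjusted p = 0.204) and the mixture by -0.10 ± 0.13 (limma adjusted p = 0.819), and neither passed.

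Among the hosts of box H/ACA snoRNAs, Snhg3 carries Snora73a and Snora73b, which act in processing of ribosomal RNA. Snhg3 had 129, 129 and 111 normalised read counts in paraquat libraries, 121, 113, 112 and 107 in TiO2 libraries, 139.6, 119, 95.7 and 133 in mixture libraries, and 148, 139, 140.4 and 132 in control libraries. Paraquat and TiO2 lay below all control libraries, and mixture 1 and 4 lay within the control range. The log2 difference was -0.30 ± 0.12 after TiO2 (limma adjusted p = 0.119) and -0.21 ± 0.12 after the mixture (limma adjusted p = 0.490), and -0.19 ± 0.13 in the paraquat libraries. Snhg3 starts 81 bases upstream of Rcc1 and shares 5592 of its 5673 bases with it on the same strand, and Rcc1 was at 45.7 to 70.9 over all libraries. Reads of these genes may not be separable in the shared part.

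Snhg8, the host of Snora24, spread widely in control, and each exposed group overlapped with it. It had 166, 174 and 142 normalised read counts in paraquat libraries, 187, 149, 138 and 179 in TiO2 libraries, 232, 228, 176 and 176 in mixture libraries, and 241, 137, 177 and 203 in control libraries. Control replicate 2 was the lowest of all 15 libraries and control replicate 1 the highest. The log2 difference from control was -0.19 ± 0.15 after TiO2 (limma adjusted p = 0.445) and 0.11 ± 0.15 after the mixture (limma adjusted p = 0.828). Mixture stood 0.31 ± 0.15 above TiO2 (limma adjusted p = 0.426), with an overlap. It stood 0.33 ± 0.16 above paraquat with none, the nearest libraries being at 176 in the mixture and 174 in paraquat.

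Snhg12, which carries 3 box H/ACA loci and Snord99, was the member that lay above control after TiO2. It had 427, 362 and 387 normalised read counts in paraquat libraries, 395, 394, 433 and 366 in TiO2 libraries, 377, 376, 351 and 368 in mixture libraries, and 366, 363, 426 and 347 in control libraries. All groups overlapped. The log2 difference from control was 0.08 ± 0.08 after TiO2 (95% interval -0.09 to 0.26; limma adjusted p = 0.595), -0.02 ± 0.08 after the mixture (limma adjusted p = 0.946) and 0.06 ± 0.09 in the paraquat libraries. Its promoter window and that of Gas5, both shown above, hold the same pair of motifs.

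Of the remaining members, Snhg11 had 19937, 20821 and 20787 normalised read counts in paraquat libraries, 22366, 20626, 19928 and 22715 in TiO2 libraries, 22205, 21203, 21615 and 21238 in mixture libraries, and 23121, 23053, 23925 and 24169.7 in control libraries. All 11 exposed libraries lay below all 4 control libraries, by a small margin, as they did for Gas5 and Snhg6. The share of all genes with that pattern in all exposures together was not computed. The log2 difference was -0.14 ± 0.06 after TiO2 (limma adjusted p = 0.182) and -0.13 ± 0.06 after the mixture (limma adjusted p = 0.427), neither of which passed, and -0.20 ± 0.07 in the paraquat libraries.

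Snhg14 had 893, 1007 and 828 normalised read counts in paraquat libraries, 1027, 902, 839 and 1058 in TiO2 libraries, 901, 1204, 889.6 and 1071 in mixture libraries, and 1131, 815, 963 and 1127 in control libraries. All groups overlapped, and control replicate 2 was the lowest library. The log2 difference was -0.07 ± 0.11 after TiO2 (95% interval -0.30 to 0.16; limma adjusted p = 0.747) and 0.01 ± 0.11 after the mixture (limma adjusted p = 0.981). Snhg14 runs antisense to Ube3a, the ubiquitin ligase gene silenced on the paternal chromosome in neurons, and shares 3613 bases with it on the opposite strand. Ube3a was at 1504 to 1967 in TiO2 libraries and at 1679 to 2261 in control libraries, a log2 difference of -0.24 ± 0.10 (limma adjusted p = 0.154). Whether counting used strand is not given in the sources used here, so reads of the shared part cannot be told apart.

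Snhg20 had 203, 168 and 166 normalised read counts in paraquat libraries, 165, 159, 169 and 151 in TiO2 libraries, 169, 136, 148 and 166 in mixture libraries, and 174, 167, 187 and 179 in control libraries. Paraquat 1 was the highest of all libraries, and each exposed group overlapped with control. The log2 difference from control was -0.14 ± 0.10 after TiO2 (limma adjusted p = 0.443) and -0.20 ± 0.10 after the mixture (limma adjusted p = 0.448).

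The libraries differed in how their values leaned with the GC content of transcripts, and the members are mostly poor in GC. Snhg14 had 31.0% GC and Snhg20 53.1%, with the other 8 between, against a median of 49.2% over all genes. The correlation across genes of a library's deviation with GC content was 0.018 to 0.334 in paraquat, -0.120 to 0.452 in TiO2, -0.277 to 0.085 in mixture and -0.378 to 0.072 in control libraries. With that trend removed from each library, the median log2 difference of the 10 genes was -0.20 after TiO2, with 8 below 0, and -0.09 after the mixture, with 8 below 0. In the paraquat libraries the median was -0.13, and Snhg6 stood at -0.75. For mixture against TiO2 the median was -0.002, with 5 below 0, where it was 0.09 as deposited. Snhg14 changed side, to 0.17 after TiO2 and 0.06 in the paraquat libraries, and Snhg20 went to -0.07 in the paraquat libraries.

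**Figure D3:**
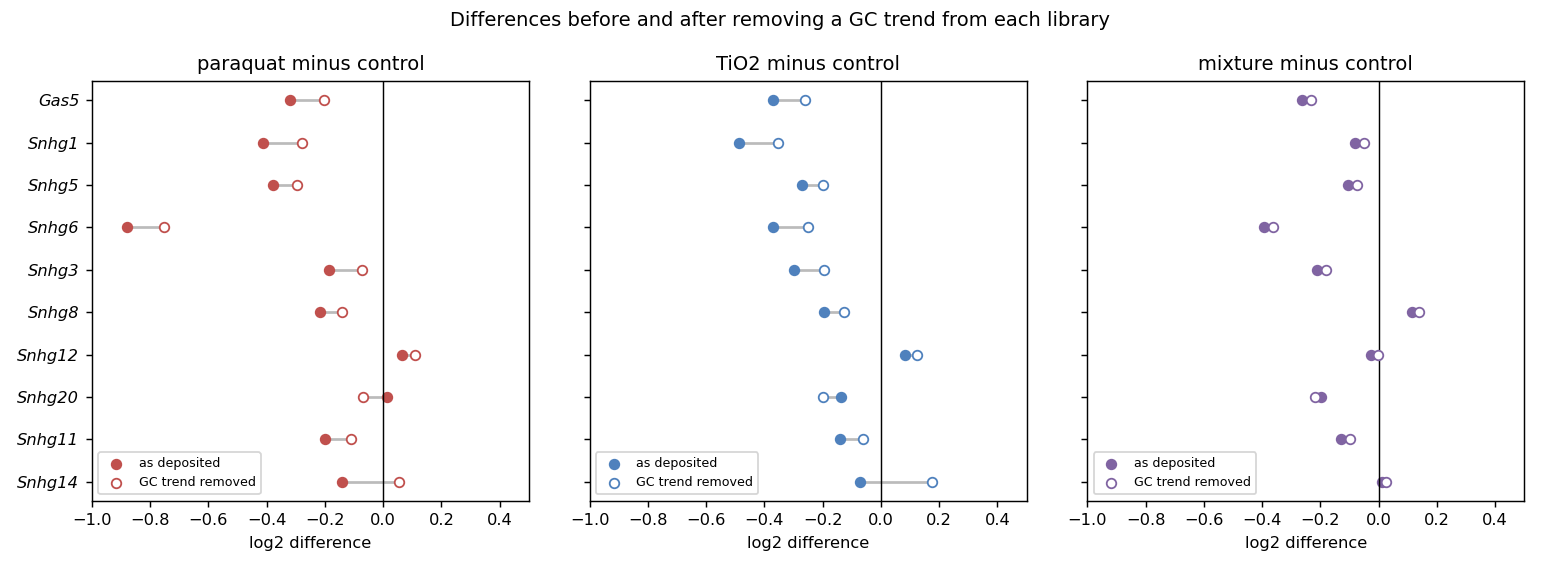
Log2 difference from control of each host gene as deposited (filled points) and after correction of each library for a GC trend (open points), for paraquat, TiO2 and mixture. Most points move toward 0 in the paraquat and TiO2 panels, Gas5 after TiO2 lying at -0.26 with the trend removed and at -0.37 as deposited.

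Markers of other cell types also differed between the groups. The summed normalised read count of 8 oligodendrocyte markers was 84337 to 98056 in paraquat, 52671 to 83134 in TiO2, 45593 to 79267 in mixture and 38278 to 57105 in control libraries. The sum of 8 markers of cortical glutamatergic neurons was 1546 to 5443 in paraquat, 1111 to 2654 in TiO2, 2364 to 4262 in mixture and 771 to 1508 in control libraries. The 5443 was in paraquat 2, with paraquat 1 and paraquat 3 at 1546 and 1720. The median log2 difference of these 8 from control was 1.02 after paraquat, 0.46 after TiO2 and 1.64 after the mixture. The sum of 10 striatal projection neuron markers was 54332 to 62556 in paraquat, 58765 to 64842 in TiO2, 54050.2 to 64449.6 in mixture and 63474 to 69022 in control libraries. Called higher were 7 of the 8 oligodendrocyte markers after paraquat and 1 after TiO2, and 2 of the 8 cortical markers after paraquat and none after TiO2, while 4 of the 10 striatal markers were called lower after paraquat and 1 after TiO2. Over all genes, 6.34% were called higher and 4.06% lower after paraquat, and 4.3% higher and 2.1% lower after TiO2. None of these oligodendrocyte, cortical or striatal markers was called after the mixture, where 1.19% of all genes were called. After TiO2, 2 of 6 astrocyte, 1 of 6 microglial, 2 of 6 pan-neuronal and 0 of 5 endothelial markers were called higher. Of those 4 lists, 2 astrocyte markers and 1 pan-neuronal marker were called higher after paraquat, and 1 pan-neuronal marker after the mixture. No marker of these lists was at 0 in any library. The part of these markers in the differences of the host genes was not tested.

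The members' values over libraries were compared with each other as a description. Over the 15 libraries, which share the group differences and the GC trend, 36 of 45 pairs had a positive Pearson correlation of log2 values, with a median of 0.38. With group means removed, 29 of 45 were positive and the median was 0.21. The highest within groups were Snhg8 with Snhg14 (r = 0.75) and Snhg11 with Gas5 (r = 0.72), and Snhg12 was negative with Snhg11 (r = -0.45). Among 11610 other genes with a mean of at least 50, those most like Snhg6 over the 15 libraries were Tmem70 (r = 0.93), an assembly factor of ATP synthase, Exosc9 (r = 0.93), a subunit of the RNA exosome, Psma2 (r = 0.92), a proteasome subunit, Gdap1 (r = 0.91), a mitochondrial outer membrane protein, and 1110059E24Rik (r = 0.91). Exosc9 had 159.8, 173 and 142 normalised read counts in paraquat libraries, 183, 192, 152 and 178 in TiO2 libraries, 190.1, 197, 171 and 197 in mixture libraries, and 203, 212, 200 and 202 in control libraries. As for Snhg6, TiO2 3 and mixture 3 were the lowest of their groups and the paraquat libraries were low. These 5 genes have 39.4% to 44.2% GC, near the 41.5% of Snhg6.

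Gas5 and Snhg1 each start close to a protein-coding gene on the opposite strand. The exposed group means of those neighbours lay above the control mean, where those of Gas5 and Snhg1 lay below it. Zbtb37, a zinc finger gene, starts 427 bases from Gas5 and overlaps it by 428 bases, where reads cannot be told apart if strand was not used. It had 344, 322 and 292 normalised read counts in paraquat libraries, 292, 281, 333 and 331 in TiO2 libraries, 274, 318, 329 and 288 in mixture libraries, and 285, 218, 237 and 277 in control libraries. Paraquat lay wholly above control, and TiO2 and mixture overlapped with control in 1 library each. The log2 difference was 0.29 ± 0.10 after TiO2 (limma adjusted p = 0.0847) and 0.25 ± 0.10 after the mixture (limma adjusted p = 0.267), and neither passed. Slc3a2, the heavy chain of amino acid transporters, starts 106 bases from Snhg1 and does not overlap it. Slc3a2 was at 703 to 989 in paraquat, 718 to 980 in TiO2, 802 to 959 in mixture and 563 to 792 in control libraries. Paraquat and TiO2 overlapped with control. Its log2 difference was 0.27 ± 0.12 after TiO2 (limma adjusted p = 0.175) and 0.32 ± 0.12 after the mixture (limma adjusted p = 0.235). Neither passed, and in the paraquat libraries the difference was 0.20 ± 0.13. Relative to control, TiO2 libraries averaged 77.5% for Gas5 and 122% for Zbtb37, and 71.8% for Snhg1 and 120.1% for Slc3a2. Mcmdc2, which overlaps the end of Snhg6 by 127 bases on the opposite strand, was low, at 19.1 to 39.4 over all libraries.

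**Figure D4:**
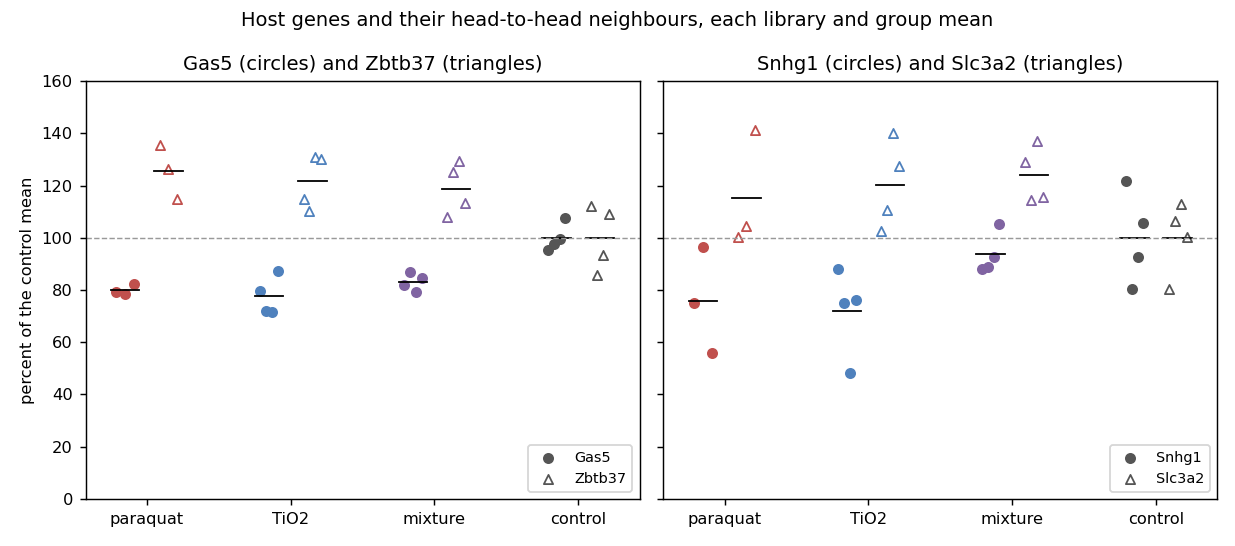
Values of Gas5 and Snhg1 (circles) and of the neighbours that start beside them on the opposite strand, Zbtb37 and Slc3a2 (triangles), as a percent of the control mean in each library, with group means (lines). Gas5 lies between 71.4% and 87.2% in exposed libraries, and Zbtb37 between 108% and 135%.

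Some genes that build snoRNA particles were called lower. Of the 4 core proteins of box C/D particles, Nop56 and Nop58 were called lower after paraquat and none was called after TiO2 or the mixture. Nop56 had a log2 difference of -0.39 ± 0.11 (limma adjusted p = 0.0233) and Nop58 one of -0.35 ± 0.11 (limma adjusted p = 0.0424), where 4.06% of all genes were called lower and 6.34% higher. The call of Nop58 was lost under 8 of 17 alternatives and that of Nop56 under 4, each when paraquat 1 or paraquat 2 was left out. Of the 4 core proteins of box H/ACA particles, Dkc1, the pseudouridine synthase dyskerin, and Nop10 were called lower after paraquat, Dkc1 alone after the mixture, and none after TiO2. Dkc1 had 96.3, 73.1 and 72.4 normalised read counts in paraquat libraries, 109, 104, 108 and 118 in TiO2 libraries, 93.1, 80.3, 80.1 and 86.4 in mixture libraries, and 132, 119.7, 119 and 125 in control libraries. All exposed libraries lay below control, though TiO2 4 (118.3) and control 3 (119.2) were less than 1 read apart. Over all genes, 10.3% lay wholly below control in paraquat, 5.02% in TiO2 and 3.37% in mixture libraries, and the share in all exposures together was not computed. Dkc1 fell by 0.62 ± 0.13 on the log2 scale after paraquat (limma adjusted p = 0.00348) and by 0.54 ± 0.12 after the mixture (limma adjusted p = 0.0216), where 0.0707% of all genes were called lower. The mixture call was lost without control 1, control 4, mixture 2 or mixture 3 (limma adjusted p up to 0.0798). Nop10 fell by 0.30 ± 0.08 after paraquat (limma adjusted p = 0.0263), a call lost under 6 of 17 alternatives, among them removal of the GC trend. None of 12 genes of particle assembly and trafficking was called in any of these comparisons.

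Calls among genes of nonsense-mediated decay and regulators of terminal oligopyrimidine transcripts are given next, and their action on the hosts was not tested. Over all genes, 4.06% were called lower after paraquat, and 2.1% lower and 4.3% higher after TiO2. Of 14 genes of nonsense-mediated decay, Upf3b was called lower after paraquat (-0.34 ± 0.11, limma adjusted p = 0.0428, lost under 9 of 17 alternatives) and none after TiO2 or the mixture. Of 10 regulators of terminal oligopyrimidine transcripts, Tsc2, an inhibitor of mTOR signalling, rose after TiO2 by 0.32 ± 0.09 on the log2 scale (limma adjusted p = 0.0262). Its call was lost with the GC trend removed and without control 1, control 4, TiO2 2 or TiO2 3. Tial1, an RNA-binding repressor of such transcripts, fell by 0.35 ± 0.08 after TiO2 (limma adjusted p = 0.00783), a call kept under all 18 alternatives, and by 0.34 ± 0.08 after paraquat (limma adjusted p = 0.0126), lost without paraquat 1 and with the GC trend removed. No gene of either list was called after the mixture.

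Other hosts in the annotation, counted if they hold a snoRNA with a Snora or Snord symbol, fall into protein-coding and noncoding genes. Hosts of snoRNAs under other symbols alone are left out, whereas the loci of the 10 genes were counted under any symbol. Of 63 protein-coding hosts, 5 were called lower and 3 higher after TiO2, where 2.1% of all genes were called lower and 4.3% higher. The 63 had a median log2 difference of -0.04 after TiO2, against -0.23 for the 10 genes and -0.01 over all genes. Rpl5, a ribosomal protein gene, fell by 0.44 ± 0.11 (limma adjusted p = 0.0142; lost without control 1 or TiO2 3), while Atp5b, a subunit of ATP synthase, rose by 0.35 ± 0.08 (limma adjusted p = 0.0115; lost without TiO2 2). After paraquat, 10 coding hosts were called lower and 1 higher, among them Rpl5 (-0.65 ± 0.12, limma adjusted p = 0.00147), the nucleolar GTPase gene Gnl3 (-0.59 ± 0.11, limma adjusted p = 0.00245) and Rpl4 (-0.35 ± 0.08, limma adjusted p = 0.00693), and these 3 calls held under all 17 alternatives. Over all genes, 4.06% were called lower and 6.34% higher after paraquat. Nop56 and Nop58, given above as core proteins, are also among the 63, so their calls are counted in both lists. Rcc1 is among the 63 through snoRNAs that it shares with Snhg3. None of the 63 was called after the mixture, where 1.19% of all genes were called. Of 12 other genes annotated as noncoding that hold such a snoRNA, none was called after TiO2 or the mixture. Their median log2 differences were -0.16 and -0.14, against -0.23 and -0.12 for the 10 genes. Their summed normalised read count was 1287 to 1347 in TiO2 libraries, 1273 to 1489.9 in mixture libraries and 1447 to 1526 in control libraries, so that TiO2 lay wholly below control. Cct6a was called lower after paraquat (-0.34 ± 0.09, limma adjusted p = 0.0207; lost without control 4, paraquat 1 or paraquat 3). Cct6a encodes a chaperonin subunit, so its place in that list rests on the annotated biotype. It makes up a large part of the sum above, at 633 to 714 in control and 532 to 664 in TiO2 libraries. The differences between these lists and the 10 genes were not tested.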

How the data were processed

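RNA was sequenced from striatum with a Lexogen SENSE total RNA kit on a NextSeq500, per the labels' protocols. Bowtie2 2.3.2.2, DESeq2 2.1.8.3 and mm10 come from the submitters' processing notes. Any read counter, annotation, filter on genes or use of strand was not given in the sources used here. The authors deposited a normalised signal, which is read counts over a size factor per library. With the step of each library, 100% of values came out as whole reads within 0.001, which is claimed for 11 of 15 libraries, since the step of the other 4 was near 1. Depth was 8690925 to 14207513 reads, and a floor of 3 reads corresponded to 1.98 to 3.25 units, covering counting error only. Libraries within groups differed by more than counting noise (chi-square per degree of freedom 3.06 to 25.3).

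Differences were tested on log2(value + 1) by limma 3.58.1 (R 4.3.3, trend and robust options) in a joint fit of all 15 libraries, on 15556 genes kept by the filter of edgeR 4.0.16 (13 dropped). The scale understates changes of low genes. Errors are SE of the fit and intervals are 95%. The edgeR quasi-likelihood test on recovered reads called 967 genes after TiO2, 182 after the mixture and 1798 after paraquat, against 996, 185 and 1617 by limma. DESeq2 1.42.0, other pseudocounts, filters, TMM rescaling, a GC trend per library (loess span 0.5), a replicate block, fits of the compared groups alone and leaving out each library were alternatives. Scripts were tested on simulated data. Replicate numbers were not taken to pair libraries. All 15569 symbols matched GENCODE M21, which gave coordinates, biotypes and transcript GC content.

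The 10 members and all lists were chosen with earlier results of these data known. Genes named are the members, genes that overlap one or start within 2 kb of one, snoRNAs inside them, the 5 genes most like Snhg6, and up to 3 called genes of a list and comparison by smallest p. Srcap, the remaining gene of that rule among the hosts, rose after TiO2 by 0.60 ± 0.15 on the log2 scale (limma adjusted p = 0.0180). Marker genes are given as sums.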

Additional observations from a re-analysis of the deposited data

Results flagged for a closer look

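Among 30 groups of 4 libraries examined over the 10 host genes, 2 held a library whose gap to the nearest other was large for the range of the group by Dixon's criterion. About 5% of groups of this size exceed it by chance. For Snhg6, TiO2 replicate 3 was at 75.3 normalised read counts, against 103 to 108 in the other TiO2 libraries. For Snhg5, TiO2 replicate 4 was at 74.6, against 87.3 to 89.5 in the others. TiO2 replicate 3 also had the highest correlation with GC content of all libraries (0.452). The part of that in its Snhg6 value was not tested.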

How the results depend on the processing

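The count of host genes called after TiO2 was 1, and it was 0 with the GC trend removed and 0 to 2 when 1 library was left out: 0 without control 4 or TiO2 2, and 2 without control 2. The counts for mixture against control and against TiO2 were 0 under every alternative run. With the replicate block the counts were 1, 0 and 0, so it changed no call of a member. The labels do not say whether the numbers pair the libraries. Same-numbered libraries deviated together with r of -0.19 to 0.27 in 21 pairs, 8 of them over 0.1. Libraries of unlike number had r of -0.34 to 0.34, and 4 of 15 libraries correlated best with their own number. Such weak correlations cannot decide whether a pairing exists. Over all genes, the count after TiO2 was 996, with 502 and 582 without control 1 and 4 and 536 and 467 without TiO2 2 and 3. That count rose to 1397 without control 2, 1265 without TiO2 4, 1354 with the block and 1199 by DESeq2. For the mixture it was 185, with 302 by DESeq2, 290 with the block and 52 to 132 without single libraries other than control 3. For mixture against TiO2 it was 0, with 54 by DESeq2, 5 with the block, 14 without TiO2 4 and 1 with the GC trend removed. For paraquat it was 1617, with 838, 1030, 736 and 665 without control 1, control 4, paraquat 1 and paraquat 3, and 1936 by DESeq2. With 3 or 4 libraries a group, smaller differences of the members were not detectable, and a missed threshold does not show equal levels.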

Other observations

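The table holds 3 further genes of the same naming series, Snhg10, Snhg17 and Snhg18. Snhg10 had 11.9, 24.4 and 18.4 normalised read counts in paraquat libraries, 24.9, 23.4, 19.1 and 31.8 in TiO2 libraries, 26.7, 27.1, 21.8 and 20.6 in mixture libraries, and 24.9, 32.0, 30.9 and 25.6 in control libraries. Paraquat lay below control and the other groups overlapped with it. Snhg17 was at 101 to 107 in paraquat, 99.6 to 140.1 in TiO2, 94.4 to 109 in mixture and 116 to 129 in control libraries. Paraquat and mixture lay below control for Snhg17. Over all genes, 10.3% lay wholly below control in paraquat libraries and 3.37% in mixture libraries. Snhg18 went the other way in the paraquat libraries, at 42.8 to 59.9 against 28 to 45.4 in control libraries, with an overlap. None passed after TiO2 or the mixture (limma with Benjamini-Hochberg adjustment, adjusted p of at least 0.496).

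Snora73b, inside Snhg3, was the one snoRNA of a member in the table, at 5.07 to 6.95 in paraquat, 7.96 to 12.5 in TiO2, 2.17 to 9.36 in mixture and 8.51 to 11.4 in control libraries. These are a few reads each, and mixture 2, the lowest at 2.17, was below the floor of 3 reads in that library, 3.25. In the imprinted region of Snhg14, Ndn rose after paraquat by 0.41 ± 0.10 on the log2 scale (limma adjusted p = 0.0145), a call lost without paraquat 1 or paraquat 3, and no gene of 5 tested there was called after TiO2 or the mixture.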
